A study of Mus musculus with 8 samples.

Results

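The mouse-locus lincRNA probes are the 691 probes of the array whose names begin with mouselincRNA and which the scanner files do not mark as controls, out of 59709 such probes in all. They were chosen by name alone, with no measured value. The number in each name was read as a locus and the sign as the strand the probe reads, which the files do not define. On that reading the probes cover 351 loci. A plus and a minus probe stood for 340 loci, 3 loci had a plus probe only and 8 a minus probe only. The names carry no gene, coordinate or sequence, so each probe is described by its name and its signal. For comparison, the array holds 1217 probes named for human lincRNA loci and 3457 named for lincRNA exons.

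Long intergenic noncoding RNAs are transcribed from their own loci between protein-coding genes, are often spliced, and carry no long open reading frame. As a class they are less abundant than messenger RNAs and are more often restricted to 1 tissue. In the heart several long noncoding RNAs take part in chromatin regulation in cardiomyocytes and in the response to load. Loci of this kind were first mapped from chromatin marks of active transcription, which do not tell which strand is copied into RNA. Probes on both strands of a locus allow the transcribed strand to be read from the array.

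The study compared hearts, taken whole from males of 8 to 12 weeks, with and without the transcription factor KLF5 in cardiomyocytes. The 4 control hearts came from KLF5 flox/flox mice, which carry the floxed alleles and do not express Cre recombinase. The 4 knockout hearts came from aMHC-KLF5-/- mice, in which Cre from the alpha myosin heavy chain promoter deletes KLF5 in cardiomyocytes and leaves the floxed alleles in the other cells of the heart. No group with Cre and intact KLF5 was analysed here, so the deletion and the presence of Cre cannot be told apart. All animals were at basal conditions. Each array held the RNA of 1 heart, depleted of ribosomal RNA and copied with random primers, so transcripts without a poly(A) tail could be labelled. In RNA from a whole heart, fewer cells of a type and less RNA per cell cannot be told apart.

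The level of a probe is the log2 processed signal minus the 75th percentile of its array over all 59709 probes, so 0 marks that percentile. A probe counts as above background where the scanner software marked it so. Each array has its own detection limit, the lowest signal marked above background. These limits lay at levels of -2.24, -2.65, -2.76 and -2.42 in control hearts 1 to 4, and at -3.14, -4.38, -3.70 and -2.26 in knockout hearts 1 to 4. The arrays of knockout hearts 1, 2 and 3 thus registered dimmer spots than any control array, while that of knockout heart 4 was like the control arrays. Of the 1200 negative-control spots, between 80 and 140 were marked above background on the control arrays and between 115 and 269 on the knockout arrays. A 2-part array code in the file headers, whose meaning no source used here states, began with 1 on every control array and 2 on every knockout array, so whatever it marks and the genotype cannot be told apart. None of the 38 marker genes of heart cell types and known long noncoding RNAs could be matched to a probe by accession, and KLF5 itself was not analysed here, so neither the tissue nor the deletion was checked on the array.

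Few of the mouse-locus lincRNA probes were above background in these hearts. On control arrays 1 to 4 the number was 162, 185, 187 and 189 of 691 (181 ± 12.6, SD, n = 4), and on knockout arrays 1 to 4 it was 243, 334, 272 and 172 (255 ± 67.2, SD, n = 4). Knockout hearts 1, 2 and 3 lay above every control heart and knockout heart 4 lay among them, and the 3 highest counts came from the 3 arrays with the lowest detection limits. As a share the range was 23.4% to 27.4% in controls and 24.9% to 48.3% in knockouts. Over all probes of the array the share was 46.6% to 52.7% in controls and 47.1% to 72.5% in knockouts. The mouse-locus probes were therefore above background less often than the array as a whole in each heart, and the rise in knockout hearts 1 to 3 was shared by the whole array. The low share was not particular to them. Probes for human lincRNA loci were lower still in each heart, at 21.7% to 25.1% in controls and 22.8% to 45.5% in knockouts. Probes for lincRNA exons were also below the whole array, at 35.7% to 42.7% in controls and 36.7% to 64.7% in knockouts.

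A single level applied to all 8 arrays gave a different picture of the groups. Above -2.24, the highest of the 8 detection limits, there were 160, 155, 158 and 173 mouse-locus probes in control hearts 1 to 4 (161.5 ± 7.94, SD, n = 4). In knockout hearts 1 to 4 there were 176, 154, 149 and 169 (162 ± 12.6, SD, n = 4). The groups overlapped and their means differed by less than the SD of either. The larger number marked in knockout hearts thus came from probes dimmer than the common level. No spot of these probes was saturated.

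**Figure D1:**
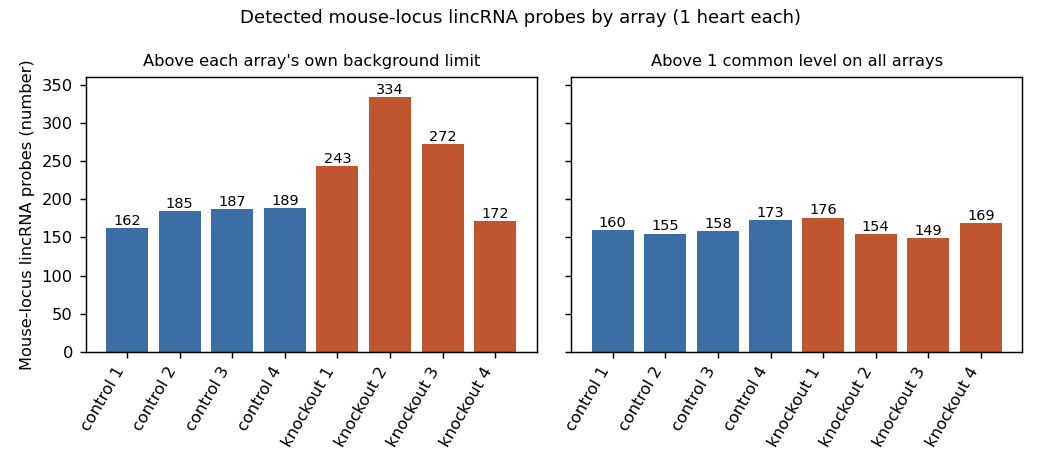
Number of the 691 mouse-locus lincRNA probes detected on each array (1 heart each, control in blue, knockout in orange), on the left above each array's own detection limit and on the right above a level of -2.24 on every array. Knockout arrays 1, 2 and 3 stand above the controls on the left (243, 334 and 272 against 162 to 189), and the groups overlap on the right (149 to 176 against 155 to 173).

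Across hearts the probes ranged from silent, here meaning above background on no array, to steady, meaning above background on all 8. On none of the 8 arrays were 267 probes (38.6%) above background, compared with 21.4% of all probes of the array. On all 8 arrays were 120 probes (17.4%), compared with 40.8% of all probes. Between these, 125 probes were above background on 1 array, 60 on 2, 46 on 3, 28 on 4, 6 on 5, 14 on 6 and 25 on 7. Of the 25 missing on a single array, 19 were missing on the array of control heart 1, whose detection limit was the highest, and 3 of those 19 lay at the lowest signal of that array. With the single level of -2.24, 108 probes were detected in all 8 hearts.

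Loci differed in which strand was detected. Of the 340 loci with both probes, 21 had the plus probe above background on all 8 arrays and the minus probe on none, and 27 had the reverse. Another 25 loci had the plus probe on all 8 arrays and the minus probe on some, and 24 had the minus probe on all 8 and the plus probe on some. Both probes were above background on all 8 arrays at 11 loci (3.24%). Neither was above background on any array at 49 loci, and at 67 each was above background on some arrays. Plus and minus probes were found on all 8 arrays about equally often, 57 of 343 and 63 of 348. Over the 351 loci, 109 had at least 1 probe above background in every heart and 54 had none in any heart.

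**Figure D2:**
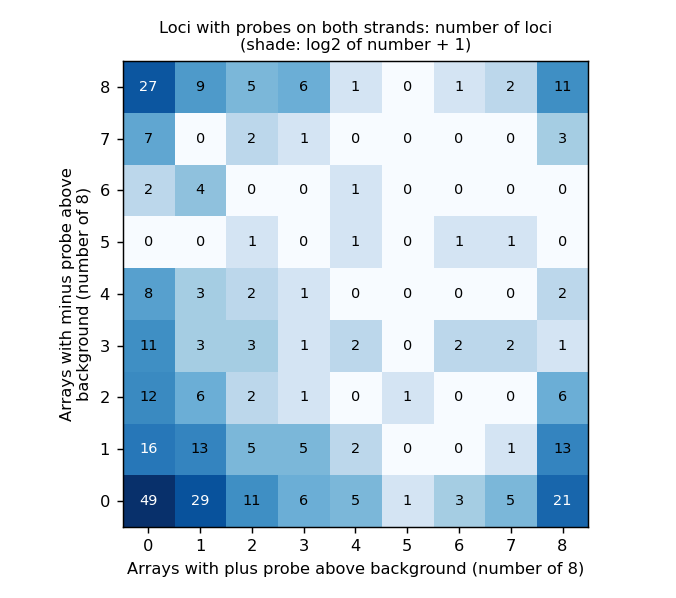
Number of loci, among the 340 with a probe on both strands, by the number of arrays of 8 on which the plus probe (horizontal axis) and the minus probe (vertical axis) were above background, with darker cells holding more loci. The corners hold 49 loci silent on both strands, 21 with the plus strand alone, 27 with the minus strand alone and 11 with both.

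The loci with 1 steady strand included 4 of the brightest probes, and their other strand was above background in no heart. mouselincRNA1437+_P1 had levels of 6.13, 6.64, 6.37 and 5.06 in control hearts 1 to 4 and of 6.88, 4.58, 5.33 and 6.21 in knockout hearts 1 to 4, while mouselincRNA1437-_P1 was above background in none. This was the most variable of the bright probes, spanning more than 2 log2 units among the knockout hearts, and its groups overlapped (difference -0.30 ± 0.53, SE; limma adjusted p = 0.886). mouselincRNA1188-_P1 had levels of 5.59, 5.66, 5.14 and 5.64 in controls and of 5.22, 5.68, 5.62 and 5.85 in knockouts, and mouselincRNA1188+_P1 was above background in none. The level in control heart 3 was the lowest of the 8 and the groups overlapped. mouselincRNA1267-_P1 had levels of 4.86, 4.90, 4.62 and 4.91 in controls and of 4.55, 4.76, 4.63 and 4.96 in knockouts. Its opposite probe, mouselincRNA1267+_P1, sat at the lowest signal of every array. mouselincRNA1606-_P1 had levels of 3.92, 3.70, 3.34 and 4.00 in controls and of 3.65, 3.71, 3.74 and 4.21 in knockouts, and mouselincRNA1606+_P1 likewise sat at the lowest signal of every array. These 4 loci were picked for detection on 1 strand, so that contrast is a description.

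The other probes with the highest mean signal also overlapped between groups. mouselincRNA0161-_P1, the brightest, had levels of 6.83, 6.64, 7.003 and 6.94 in controls and of 6.71, 6.79, 6.74 and 6.63 in knockouts. The groups overlapped, and the difference of -0.14 ± 0.10 (SE) did not pass (limma adjusted p = 0.737). mouselincRNA0478+_P1 had levels of 3.67, 3.41, 3.80 and 3.89 in controls and of 3.68, 3.44, 4.79 and 4.03 in knockouts, with knockout heart 3 standing highest. mouselincRNA0158-_P1 had levels of 3.37, 3.48, 3.32 and 3.28 in controls and of 3.17, 3.27, 3.59 and 3.86 in knockouts. Among these 8 bright probes the group differences ran from -0.30 to 0.30, and every pair of groups overlapped. Brightness also depends on how well a probe binds, so the order of these probes is one of signal and not of RNA amount.

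At the 11 loci with both strands above background in every heart, the strand difference could be followed between genotypes. At 1 of these loci the plus probe mouselincRNA0077+_P1 had levels of 5.90, 5.87, 5.90 and 5.82 in controls and of 5.84, 5.70, 5.99 and 6.20 in knockouts. The minus probe mouselincRNA0077-_P1 had levels of -0.75, -0.75, -0.86 and -0.66 in controls and of -0.82, -0.81, -0.85 and -0.71 in knockouts. The plus-minus difference was 6.63 ± 0.12 in controls and 6.73 ± 0.18 in knockouts (SD, n = 4), a change of 0.10 ± 0.17 (SE). At the locus of mouselincRNA0543+_P1 and mouselincRNA0543-_P1 the difference had the opposite sign, -4.67 ± 0.23 in controls and -4.24 ± 0.18 in knockouts (SD, n = 4). Its change of 0.43 ± 0.19 (SE) did not pass the test (limma adjusted p = 0.443). The loci of mouselincRNA0706+_P1, mouselincRNA0997+_P1 and mouselincRNA0413+_P1 had smaller differences between strands, and these changed by 0.26 ± 0.19, 0.31 ± 0.29 and 0.11 ± 0.19 (SE). None of these 3 changes passed. The probes of a locus need not bind equally well, so the size of a strand difference is not a ratio of RNA amounts, and only its change between genotypes is compared.

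Over the array 245 strand pairs had both probes tested, and 16 of them were mouse-locus lincRNA pairs. No mouse-locus pair passed the test on its strand difference (limma, adjusted p under 0.05 over the 245 pairs), where 1.63% of all pairs did. At an unadjusted p under 0.05 there were 2 of 16, the pairs of mouselincRNA0538+_P1 and mouselincRNA0797+_P1, where 9.8% of all pairs passed. The changes among the 16 ran from -1.46 to 1.06. The lowest was that of mouselincRNA0797+_P1, whose minus probe sat at the lowest signal of control array 1, and it was -0.78 without that heart (limma adjusted p = 0.0464).

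No mouse-locus lincRNA probe passed the comparison of knockout with control hearts. The test took a probe with 3 or more usable arrays in each group if all usable arrays of either group had it above background, which held for 156 of the 691 probes and 27878 probes of the array. With Benjamini-Hochberg adjustment over the 27878, 0 of 156 had a limma adjusted p under 0.05, against 0.14% of all probes, and the lowest adjusted p of a mouse-locus probe was 0.181. At an unadjusted limma p under 0.05, 17 were higher in the knockout (10.9%), where 5.37% of all tested probes were, and 1 was lower, where 2.69% of all were. The 17 had changes from 0.28 to 2.16, the highest of which rests on control values not above background (mouselincRNA0440-_P1). The groups did not overlap for 15 probes higher in the knockout (9.62%; 4.09% of all tested probes) and for 1 lower probe (1.66% of all). The shares of higher probes were thus above the array's background and the shares of lower ones below it, with none of the differences past the adjusted threshold. When each array was centred on its median, 6 were higher (3.85%) and 2 lower (1.28%), beside 3.33% and 4.95% of all tested probes. The share of higher probes was then near the array's own, and that of lower probes stayed below it. With that centring the median difference was 0.03 over the 156 probes and -0.06 over all tested probes.

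The median difference over the 156 probes was 0.09, compared with 0.005 over all tested probes, and 104 of the 156 differences were above 0. The median was highest in dim probes, but in every range of level it lay above that of all probes of the range. With a mean level under -1.5 the median was 0.25 over 49 mouse-locus probes and 0.13 over all probes of that range. Between -1.5 and 0 it was 0.11 over 70 probes, with 0.02 over all. Above 0 it was 0.06 over 37 probes, with -0.02 over all. A dim probe could enter the test by being above background in the knockout hearts alone, and their detection limits were mostly lower, so the count of higher probes was repeated without that route. This kept 118 probes above background on all 8 arrays with no spot left out as an outlier. Of these, 10 (8.47%) were higher at an unadjusted limma p under 0.05 and 2 (1.69%) were lower. Over all probes of the array under the same filter, 3.91% were higher and 2.81% lower.

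The array of knockout heart 4 moved with this result. Of the 118 probes, 55 had their highest level in knockout heart 4 (46.6%) and 3 their lowest (2.54%). Over the 24328 probes of the array above background in every heart with no outlier spot, 22.1% were highest and 18.0% lowest there. The median departure of the 118 probes from their own means was 0.20 in knockout heart 4 and between -0.09 and 0.05 in the other 7 hearts. Of all such probes of the array the median departure in knockout heart 4 was 0.03. Probes for human lincRNA loci behaved alike, with 46.0% highest in knockout heart 4, and probes for lincRNA exons did so for 33.0%. Without knockout heart 4, 4 of the 118 (3.39%) were higher and 2 (1.69%) lower at an unadjusted limma p under 0.05. Of all such probes 2.57% were higher and 2.11% lower, and the median difference of the 118 was 0.02. Leaving out each of the other 7 hearts in turn gave 6 to 13 higher probes, with 6 without control heart 3 and 6 without knockout heart 1, and medians of 0.07 to 0.11. What set the array of knockout heart 4 apart was not tested. When the filter was applied again to the 7 remaining arrays, 206 mouse-locus probes entered the test. Of these, 21 (10.2%) were higher and 3 (1.46%) lower, beside 5.64% and 1.47% of all probes tested that way.

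**Figure D3:**
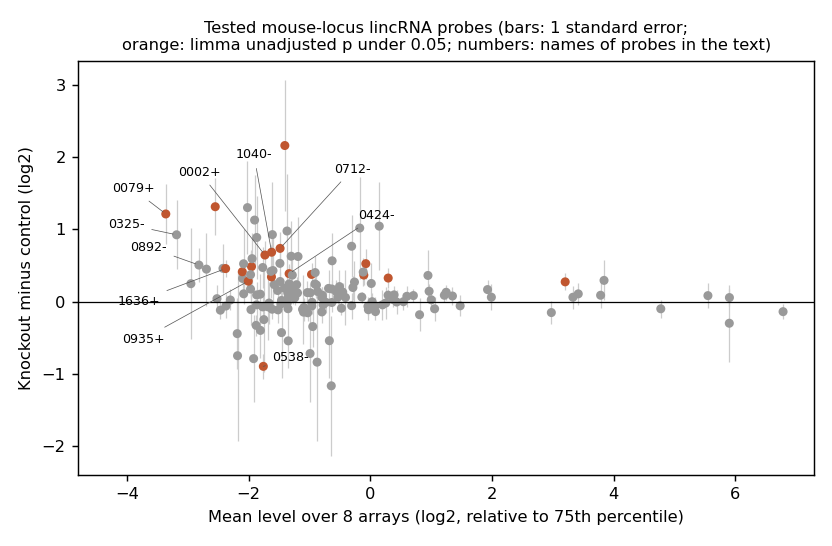
Difference between knockout and control (log2) against the mean level over 8 arrays for the 156 tested mouse-locus lincRNA probes, with bars of 1 SE and orange points at an unadjusted limma p under 0.05. Points above 0 outnumber those below it (104 against 52), most of all at low levels, and no probe passed the adjusted threshold.

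The probe with the smallest p was the only 1 of the tested mouse-locus probes that was lower in the knockout at an unadjusted p under 0.05. mouselincRNA0538-_P1 had levels of -1.27, -0.91, -1.30 and -1.77 in control hearts 1 to 4 and of -2.05, -2.31, -2.22 and -2.25 in knockout hearts 1 to 4. Every knockout heart lay below every control heart, and the probe was above background in all 8. In knockout heart 4 its level was just over the detection limit of that array (-2.26). Its levels in knockout hearts 2 and 4 lay below the common level of -2.24. The means were -1.31 ± 0.35 and -2.21 ± 0.11 (SD, n = 4 each), a difference of -0.89 ± 0.17 (SE) or 1.86-fold lower, with a limma adjusted p of 0.181. After normexp background correction the difference was -0.53 (limma adjusted p = 0.282). Without control heart 4 it was -1.04 with a limma adjusted p of 0.0469. Over 18 alternative settings the limma adjusted p ran from 0.0469 to 0.390, the highest without knockout heart 2. The plus probe of this locus, mouselincRNA0538+_P1, had levels of 1.92, 1.85, 1.66 and 1.94 in controls and of 2.00, 2.11, 1.71 and 2.23 in knockouts. Those groups overlapped (0.17 ± 0.13, SE; limma adjusted p = 0.743). The plus-minus difference of this locus was 3.15 ± 0.41 in controls and 4.22 ± 0.27 in knockouts (SD, n = 4), a change of 1.06 ± 0.25 (SE; limma adjusted p = 0.102). This too passed only without control heart 4 (1.25, limma adjusted p = 0.0442). At this locus the strand seen by the minus probe was thus dimmer in each knockout heart than in any control heart, while the groups overlapped for the other strand.

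The 6 higher probes with the smallest p and no overlap between groups had small differences. mouselincRNA1636+_P1 had levels of -2.70, -2.84, -2.53 and -2.37 in controls and of -2.17, -2.003, -2.19 and -2.24 in knockouts. All 4 knockout hearts were above background and 2 of the controls were (0.46 ± 0.12, SE; limma adjusted p = 0.384). mouselincRNA1040-_P1 had levels of -1.68, -2.08, -2.07 and -2.04 in controls and of -1.61, -1.52, -1.19 and -0.80 in knockouts. Control heart 1 stood above the other controls and close to knockout heart 1 (0.69 ± 0.19, SE; limma adjusted p = 0.428). mouselincRNA0712-_P1 had levels of -2.23, -1.73, -1.74 and -1.71 in controls and of -1.49, -1.33, -1.12 and -0.52 in knockouts. Its difference of 0.74 ± 0.22 (SE; limma adjusted p = 0.484) was the largest of the 6, a 1.67-fold higher signal, with control heart 1 lowest and knockout heart 4 highest.

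mouselincRNA0002+_P1 had levels of -2.67, -1.80, -1.81 and -1.94 in controls and of -1.496, -1.46, -1.45 and -1.23 in knockouts. Control heart 1 was again the lowest and was not above background there (0.65 ± 0.20, SE; limma adjusted p = 0.493). mouselincRNA0424-_P1 had levels of -1.86, -1.32, -1.44 and -1.51 in controls and of -1.12, -1.30, -1.14 and -1.01 in knockouts, where knockout heart 2 nearly met control heart 2 (0.39 ± 0.13, SE). mouselincRNA0935+_P1 had levels of -2.04, -2.14, -2.15 and -2.27 in controls and of -1.88, -1.93, -1.98 and -1.67 in knockouts (0.28 ± 0.10, SE). In 5 of these 6 probes the highest level of all belonged to knockout heart 4, and the exception was mouselincRNA1636+_P1. After normexp background correction the 6 differences were smaller, at 0.11, 0.38, 0.40, 0.30, 0.24 and 0.11 in the order given. Of the 17 higher probes at an unadjusted p under 0.05, 11 were highest in that heart.

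**Figure D4:**
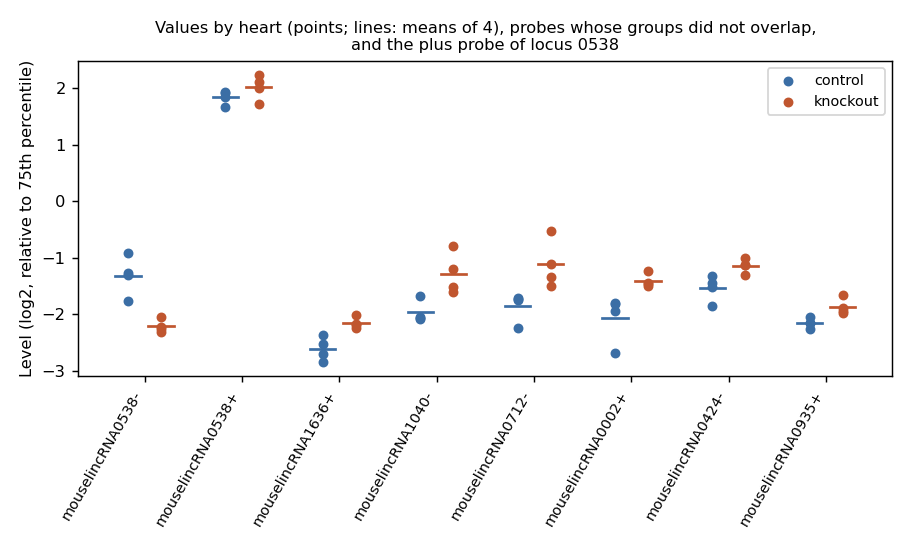
Level in each heart (points; log2, with 0 at the 75th percentile) and group means (lines, n = 4) for the 7 mouse-locus lincRNA probes with the smallest p whose groups did not overlap, and for mouselincRNA0538+. mouselincRNA0538- is lower in each knockout heart (-2.05 to -2.31 against -0.91 to -1.77), its plus partner overlaps between groups, and the 6 others are higher in the knockout by 0.28 to 0.74.

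By the marks of the scanner software, 3 probes were above background in all 4 knockout hearts and in no control heart. mouselincRNA0079+_P1 had levels of -4.42, -4.72, -2.95 and -3.79 in controls and of -2.89, -2.49, -3.47 and -2.17 in knockouts. mouselincRNA0325-_P1 had levels of -4.57, -3.26, -3.90 and -2.86 in controls and of -3.04, -2.45, -3.63 and -1.76 in knockouts. mouselincRNA0892-_P1 had levels of -3.54, -2.77, -2.99 and -2.84 in controls and of -2.85, -2.23 and -2.50 in knockout hearts 1 to 3, with the outlier spot of knockout heart 4 left out of the fit. For each of the 3 probes the groups overlapped, and only 1 knockout heart exceeded the detection limit of every control array. The control mean with each array raised to its detection limit was -2.52, above the knockout means of -2.76, -2.72 and -2.53. No fold is therefore given.

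Probe mouselincRNA0561+_P1 was named after its values were seen, because it passed the adjusted threshold when the signal filter was dropped (limma adjusted p = 0.0154) and when knockout heart 4 was left out (limma adjusted p = 0.00426). It sat at the lowest signal of all 4 control arrays and had levels of -2.87, -2.76, -2.70 and -3.26 in knockouts. Every one of these knockout levels lay below the detection limit of control arrays 1, 2 and 4, and its 4 control values are bounds set by the software. The minus probe of that locus, mouselincRNA0561-_P1, had levels from -1.40 to -1.20 in controls and from -1.35 to -1.21 in knockouts, so the groups overlapped. A second such probe, mouselincRNA1298-_P1, had control levels from -4.46 to -4.17 and knockout levels of -2.87, -2.96, -3.03 and -3.53, and passed without knockout heart 4 (limma adjusted p = 0.00593). It was above background in 3 knockout hearts and no control heart, at levels under every control limit.

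The steady probes varied little between hearts. For the 118 probes above background in every heart, mean levels ran from -2.08 to 6.78 with a median of -0.75, and 36 were above 0. The median SD was 0.19 among control hearts, 0.20 among knockout hearts and 0.22 over all 8, compared with 0.21 for all probes above background in every heart. For 72 of the 118 the SD over 8 hearts was under 0.25, and for 18 it was over 0.5.

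The most variable steady probes spread widely within each genotype or within 1 of them. mouselincRNA1538+_P1 had levels of 1.84, -2.54, -0.66 and -0.47 in controls and of 1.40, -2.34, -2.14 and -2.09 in knockouts. It was high in 1 heart of each group, control heart 1 and knockout heart 1, and spanned more than 3 log2 units within each genotype. mouselincRNA0970-_P1 had levels of 0.83, -2.004, 0.02 and -1.59 in controls and of 0.65, 0.89, 0.88 and -1.08 in knockouts. It was low in control hearts 2 and 4 and in knockout heart 4. mouselincRNA0939+_P1 had levels of 0.86, -2.52, -2.74 and -2.11 in controls and of -1.72, -1.75, -2.04 and -1.98 in knockouts. Control heart 1 alone stood out, and without it the difference of -0.25 turned to 0.58. mouselincRNA1318+_P1 had levels of -1.16, -2.61, -0.03 and -1.19 in controls and of -2.03, -2.21, -2.26 and -0.20 in knockouts, with control heart 3 and knockout heart 4 highest. The differences between genotypes were -0.84 for mouselincRNA1538+_P1 (from -1.73 to -0.07 with 1 heart left out), 1.02 for mouselincRNA0970-_P1 (0.58 to 1.53) and -0.43 for mouselincRNA1318+_P1 (-0.92 to -0.02). The limma adjusted p of the 4 probes ran from 0.725 to 0.936, so at this spread no difference between genotypes could be told from the variation between hearts.

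Other probes were bright in some hearts and at the lowest signal in others. Counting probes at the lowest signal of at least 1 array and at least 1 log2 unit over the common level (-1.24 or higher) on another, there were 41 (5.93%), compared with 3.24% of all probes of the array. Of the 41, 29 were on in 1 heart, 7 in 2 hearts, 2 in 3 hearts and 1 each in 4, 6 and 7 hearts. They were on in controls only for 18, in knockouts only for 15 and in both groups for 8. The examples that follow were named after their values were seen. mouselincRNA0072+_P1 was on in control heart 1 (-0.08) and knockout hearts 3 and 4 (0.81 and -0.26) and at the lowest signal in the other 5. mouselincRNA0792-_P1 was on in control hearts 2 and 3 (-0.98 and -0.19) and knockout heart 1 (1.68) and at the lowest signal elsewhere. Neither pattern followed genotype.

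Among probes on in a single group, mouselincRNA1119-_P1 was on in control hearts 1 and 2 (-0.42 and 0.60) and in no other heart. mouselincRNA0208-_P1 was on in knockout hearts 1 and 4 (-0.71 and -0.27) and at the lowest signal in the other 6. mouselincRNA1190-_P1 was above background in control hearts 1, 2 and 3 (-1.61, -0.06 and -1.43), was at the lowest signal in control heart 4 and was above background in no knockout heart. Without control heart 4 it passed the adjusted threshold (limma adjusted p = 0.0241). It entered that test only because the 3 control arrays left were all above background. Its knockout values are bounds, 3 of the 4 at the lowest signal of the array. The mean level of the 3 control hearts (-1.03) was 5.05-fold above the mean detection limit of the 4 knockout arrays (-3.37). Control hearts 1 and 3 lay much closer to the limit of knockout array 4 (-2.26), and control heart 4 is left out of that mean. The fold thus describes hearts chosen for being above background and is not a difference between the groups. With all 8 hearts it was not tested, because not every control array was above background. mouselincRNA0440-_P1 showed the reverse. Its levels were -3.82, -0.66, -0.72 and -4.74 in controls and -0.36, -0.46, -0.32 and -0.16 in knockouts. It was close to even in 6 hearts and off in control hearts 1 and 4, neither of them above background. The fitted difference of 2.16 ± 0.91 (SE; limma adjusted p = 0.613) depends on those values, and was 1.18 ± 0.41 (SE; limma adjusted p = 0.567) with each array raised to its detection limit.

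mouselincRNA1252+_P1 and mouselincRNA0768+_P1 were off in control heart 1 alone. In the other 7 hearts the first had levels from -1.19 to -0.76 and the second from -1.38 to -1.01, whichever the genotype. mouselincRNA0770+_P1 was on in control heart 1 alone, at 1.08, and below -3.4 in the 7 others. Of the 29 probes on in a single heart, 9 were on in knockout heart 1 and 8 in control heart 1, compared with 0 to 4 in each other heart. Each heart was hybridised once, so a difference between animals and a difference between arrays cannot be told apart here.

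**Figure D5:**
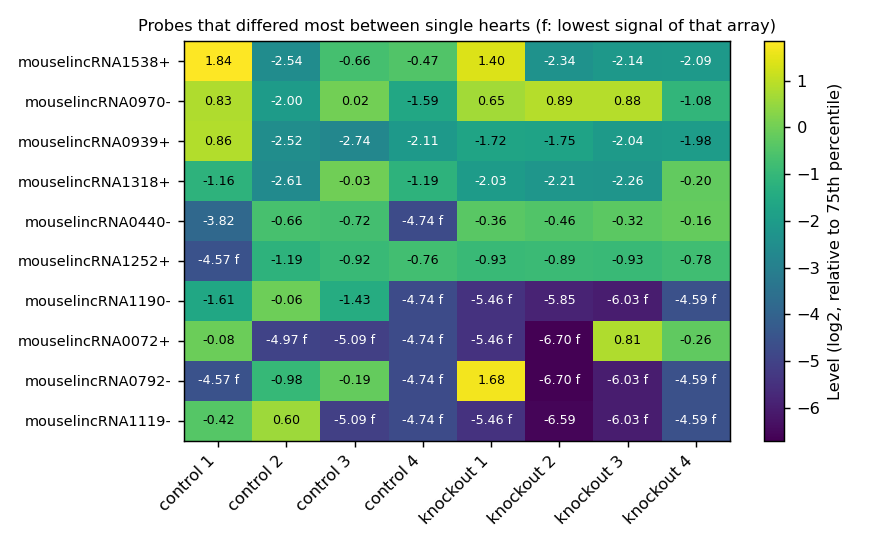
Levels (log2, with 0 at the 75th percentile) of the 4 most variable steady mouse-locus lincRNA probes and of 6 probes on in some hearts and off in others, with brighter cells for higher levels and f for the lowest signal of that array. mouselincRNA1538+ is high in control heart 1 and knockout heart 1 (1.84 and 1.40), and mouselincRNA0440- is low in control hearts 1 and 4 alone.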

How the data were processed

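The deposited files give the intensity of each spot after background subtraction and without scaling between arrays. Agilent Feature Extraction 11.0.1.1 is named in the submitters' processing notes. The authors' deposited value table is on the log2 scale and holds 21341 probes, none of them a mouse-locus lincRNA probe, so it was not used. Other deposited columns, the detection flags, were used as given.

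Spots named as negative controls (1200) or flagged as outliers were left out, spots of a probe were averaged, log2 values were scaled to the 75th percentile of 59709 probes, and values that the software found not positive and significant, all at the lowest signal of their array, were kept. The comparison of 4 with 4 hearts used limma 3.58.1 (R 4.3.3), fitted on all 27878 tested probes with Benjamini-Hochberg adjustment at 0.05, and tested on simulated data. Differences are knockout minus control. Strand pairs were fitted on their plus-minus difference over 245 pairs.

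Named probes were those above background on all arrays of 1 group and none of the other, up to 6 per direction by smallest p without overlap, the 8 brightest, the 4 of largest SD, 6 loci with both strands and 4 with 1 strand on all arrays; the order of the last 2 sets and other names came later. The mouse-locus set was defined by name alone, but that set and the rules were chosen with earlier results of these data known. The labels call the replicates separate mice, and the number of arrays limits the precision. Alternatives changed the scaling, background correction, filter, floor, outlier spots, variance model, replicate block and each array in turn.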

Additional observations from a re-analysis of the deposited data

Results flagged for a closer look

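Of 64 sets of 4 hearts, 10 had 1 array far from the other 3 relative to the set's range. Probes were examined where every array of the group was above background, and 1 of the 10 is the count of detected probes. Chance alone marks about 0.05 of such sets, but 3 of the 10 come from probes named for their large SD, so the number is not set against chance. Control heart 1 accounted for 5 of them. It had 162 mouse-locus probes above background, where the other controls had 185 to 189. mouselincRNA1040-_P1 was at -1.68 there, with the other controls from -2.08 to -2.04, and mouselincRNA0712-_P1 was at -2.23, with the others from -1.74 to -1.71. The plus probes of 2 loci with both strands were low in the same heart. mouselincRNA0706+_P1 was at -0.84 against -0.28 to -0.20, and mouselincRNA0997+_P1 at -1.84 against -0.93 to -0.81.

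Knockout heart 4 accounted for 3 more. mouselincRNA1606-_P1 was at 4.21 against 3.65 to 3.74 in the other knockouts, and mouselincRNA1318+_P1 at -0.20 against -2.26 to -2.03. mouselincRNA0970-_P1 was low there, at -1.08 against 0.65 to 0.89. In knockout heart 1, mouselincRNA1538+_P1 was at 1.40 against -2.34 to -2.09. In control heart 3, mouselincRNA1188-_P1 was at 5.14 against 5.59 to 5.66.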

How the results depend on the processing

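The count of 0 mouse-locus lincRNA probes past the adjusted threshold became 1 without the signal filter and 0 to 2 with 1 heart left out. The 17 higher probes at an unadjusted p became 10 when limited to probes detected on all arrays (8.47%, where 3.91% of all probes were higher). They became 6 with median centring (3.85%, all 3.33%), 39 without a filter (5.64%, all 4.49%) and 9 with normexp (5.77%, all 4.12%). With 1 heart left out there were 11 to 21 (7.05% to 12.0%, all 4.52% to 5.64%), with 11 without control heart 2 and without knockout heart 1. The 1 lower probe became 2 when limited to probes detected on all arrays (1.69%, all 2.81%). It became 2 with median centring (1.28%, all 4.95%), normexp (1.28%, all 2.94%) and quantile scaling (1.28%, all 2.61%). Without a filter 32 were lower (4.63%, all 3.01%), a share above the array's own. Leaving out 1 heart gave 1 to 4 lower probes (0.63% to 2.55%, all 1.47% to 3.34%). The median difference turned to -0.23 without a filter, where values at the lowest signal of each array enter, and stayed between 0.02 and 0.13 under the other settings. Strand pairs past the threshold became 1 where signals were raised to the detection limit, and 0 to 1 with 1 heart left out. That pair was mouselincRNA0797+_P1 with its minus probe for the raised limit (-0.88; limma adjusted p = 0.0262) and without control heart 1, the pair of mouselincRNA0538+_P1 without control heart 4 and that of mouselincRNA0561+_P1 without knockout heart 4. The 120 probes detected on all 8 arrays became 212 with the positive-and-significant flag, 89 over the 95th percentile of negative-control spots and 120 to 139 with 1 heart left out. Limited to probes detected on all 8 arrays and without knockout heart 4, 4 probes were higher and 2 lower; without another heart there were 6 to 13 higher (7 without control heart 2) and 1 to 3 lower. Those fits, and the common level of -2.24 (108 probes detected in all hearts), were chosen after seeing the data.

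With the replicate block, 15 probes were higher (9.62%, all 6.01%), 1 lower (0.64%, all 4.33%) and 0 past the adjusted threshold. Same-numbered hearts correlated at 0.06, -0.05, 0.36 and 0.24 for numbers 1 to 4. The highest correlation with a heart of another number was 0.05, 0.08, 0.04 and 0.09. Numbers 3 and 4 thus stood well above the other pairings, number 1 barely did and number 2 did not. The second part of the array code equalled the replicate number in both groups. What hearts of the same number share was not tested.

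Single probes changed sign under some settings. mouselincRNA0077+_P1 was at -0.0022 with median centring, and the 3 probes marked in knockouts alone, mouselincRNA0079+_P1, mouselincRNA0325-_P1 and mouselincRNA0892-_P1, went from 1.21, 0.93 and 0.51 to -0.24, -0.20 and -0.0095 where signals were raised to it. With 1 heart left out, the difference ran from -0.0298 to 0.14 for mouselincRNA0077+_P1, from -0.0191 to 0.21 for mouselincRNA0158-_P1 and from -0.15 to 0.0216 for mouselincRNA0706-_P1. It ran from -0.62 to 0.58 for mouselincRNA0939+_P1, from -0.0006 to 0.15 for mouselincRNA0997-_P1 and from -0.0354 to 0.21 for mouselincRNA1188-_P1. It ran from -0.67 to 0.0921 for mouselincRNA1437+_P1 and from -0.0422 to 0.18 for mouselincRNA1606-_P1 (-0.0377 without knockout heart 4). The cause of these changes was not tested. The alternative on the authors' value table gave no value. Depth of signal limits the dim probes most, since 156 of the 691 could be tested.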
